A study of Mus musculus with 6 samples.

Results

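The genes described here are 10 immediate early and heat shock genes, *Fos*, *Fosb*, *Jun*, *Junb*, *Egr1*, *Egr2*, *Ier2*, *Atf3*, *Dusp1* and *Hspa1a*, in the testes of newborn mice. They were taken by name: every non-control probe whose gene name on the array is one of these symbols, which gave 10 probes among 55681 distinct probes with 34844 gene names. The *Fos* probe is printed in 10 spots on each array and the others in 1 spot each, 19 spots in all. RNA of whole testes at postnatal day 0 (males of a mixed FVB.129/Sv strain) was hybridised to 1-colour Agilent arrays, 1 array per animal and 2 animals per genotype. VSKO mice carried a Cre recombinase driven by the germ cell gene *Ddx4* (Vasa), together with 1 deleted and 1 floxed *Sin3a* allele, and are labelled as having no functional allele in germ cells. HEMI mice carried this Cre, 1 deleted allele and 1 allele left intact. WT mice carried the Cre with both alleles intact, so that all 3 groups share the transgene and no group without Cre was analysed here. The Cre acts in germ cells, whereas the RNA is that of the whole organ, so fewer cells of a type and less RNA per cell cannot be told apart in any value below. *Sin3a* itself stood at a log2 signal of 0.61 and 0.38 in VSKO, 0.89 and 0.89 in HEMI and 1.09 and 1.11 in WT, on the scale explained below, and whether its probe lies in the deleted exons is unknown here. Litter, time of day and the interval between death and lysis are not stated in the labels.

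Immediate early genes are transcribed within minutes of a stimulus from factors already present in the cell, and their transcripts and proteins are short-lived. The AP-1 transcription factor is a dimer of a Fos protein with a Jun protein or of Jun proteins alone, the Egr proteins are zinc finger factors induced by growth factor signalling, and Dusp1 is a phosphatase that switches off the MAP kinases driving the response. *Hspa1a* encodes the inducible 70 kDa heat shock protein, a chaperone controlled by heat shock factor 1. As a class these genes are known to respond to handling, warming and oxygen shortage of excised tissue, and for that reason they are shown array by array as a check on dissection.

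The 250 bases before the annotated start are shown for 5 of the genes, because *Fos*, *Fosb*, *Junb* and *Hspa1a* were the genes whose values stood apart on 1 array, while *Jun* had the most even level of the AP-1 genes. Windows were available for 8 of the 10 genes and are those of RefSeq on build GRCm38.p6, given 5′ to 3′ on the strand of the gene. In the 4 AP-1 genes the capitals mark TGACG, the core of the cyclic AMP response element, on either strand. In *Hspa1a* they mark GAANNTTC, a pair of inverted heat shock factor units. The windows lie at chr12:85473640-85473889 (plus strand) for *Fos*, chr7:19310046-19310295 (minus) for *Fosb*, chr8:84978749-84978998 (minus) for *Junb*, chr4:95052223-95052472 (minus) for *Jun* and chr17:34972157-34972406 (minus) for *Hspa1a*.
Fos: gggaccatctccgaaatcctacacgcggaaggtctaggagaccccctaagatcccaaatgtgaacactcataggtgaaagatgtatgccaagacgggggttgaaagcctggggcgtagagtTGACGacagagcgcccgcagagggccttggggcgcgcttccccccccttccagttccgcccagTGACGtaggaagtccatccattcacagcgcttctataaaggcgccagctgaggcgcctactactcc
Fosb: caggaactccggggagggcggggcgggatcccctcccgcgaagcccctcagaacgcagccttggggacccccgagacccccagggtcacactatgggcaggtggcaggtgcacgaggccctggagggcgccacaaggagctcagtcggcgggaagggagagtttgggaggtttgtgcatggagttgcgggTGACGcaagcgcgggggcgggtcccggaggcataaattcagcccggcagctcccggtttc
Junb: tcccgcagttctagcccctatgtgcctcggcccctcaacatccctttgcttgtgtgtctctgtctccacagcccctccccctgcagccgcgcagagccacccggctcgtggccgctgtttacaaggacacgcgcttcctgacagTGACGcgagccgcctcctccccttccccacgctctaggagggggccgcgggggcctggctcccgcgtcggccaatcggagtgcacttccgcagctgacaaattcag
Jun: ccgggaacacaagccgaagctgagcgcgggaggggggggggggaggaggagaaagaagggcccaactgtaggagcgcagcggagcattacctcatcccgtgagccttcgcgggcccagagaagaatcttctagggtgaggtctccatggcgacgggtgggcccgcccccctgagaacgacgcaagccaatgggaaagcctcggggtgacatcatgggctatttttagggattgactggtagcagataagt
Hspa1a: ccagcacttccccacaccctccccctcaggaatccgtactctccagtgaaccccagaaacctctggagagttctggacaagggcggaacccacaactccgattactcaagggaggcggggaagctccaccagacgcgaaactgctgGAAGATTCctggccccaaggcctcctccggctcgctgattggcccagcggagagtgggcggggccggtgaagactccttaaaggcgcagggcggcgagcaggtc

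TGACG occurred at bases -129 to -125 and -66 to -62 of *Fos* counted from the annotated start, before a TATAAA at -33 to -28. It also occurred in *Fosb* (-60 to -56) and *Junb* (-106 to -102), and not in the window of *Jun*. Of the 8 genes with a window, 6 held TGACG on either strand (*Fos*, *Fosb*, *Junb*, *Egr2*, *Atf3* and *Dusp1*), against 19.8% of 27025 genes. The full palindrome TGACGTCA, which contains TGACG on both strands, was found in *Dusp1* alone among the 8, at -143 to -136, and in 1.77% of all genes. GAANNTTC was found in *Hspa1a* (-104 to -97) and *Jun* (-128 to -121), and in 7.73% of all genes. A CArG box, the site of serum response factor, was found in *Egr2* alone among the 8 and in 1.62% of all genes, and the AP-1 motif TGANTCA in none of the 8 and in 7.82% of all genes. These matches are letters in a window of this length and no record of binding.

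Signals are given as the log2 of the processed signal after subtracting the 75th percentile of each array, so that 0 stands for that percentile. A value says how a gene differs between arrays and cannot be set against the value of another gene, since each probe has its own brightness. All 10 probes were well above background on all 6 arrays and none was saturated. Probe positions are on build mm9 as the array files give them.

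*Fos* encodes the founding AP-1 subunit, and its probe lies on chromosome 12 from 86817900 to 86817959 (plus strand). It stood at -0.73 and -0.17 in VSKO testes, -0.29 and -1.37 in HEMI testes and -0.61 and 0.42 in WT testes. WT replicate 2 was the highest array and HEMI replicate 2 the lowest, the groups overlapped in all 3 comparisons, and the extremes were 3.46-fold apart. The 10 spots of this probe show how little of that range is spot noise. On WT replicate 2 they ran from 0.34 to 0.49, on HEMI replicate 2 from -1.46 to -1.26, and the SD between spots was 0.035 to 0.098 on the 6 arrays. On WT replicate 1, 1 outlier spot was left out. Spots on 1 array measure the same labelled RNA, so this spread leaves out differences of dissection, extraction and labelling, which cannot be told apart from the animal.

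**Figure D1:**
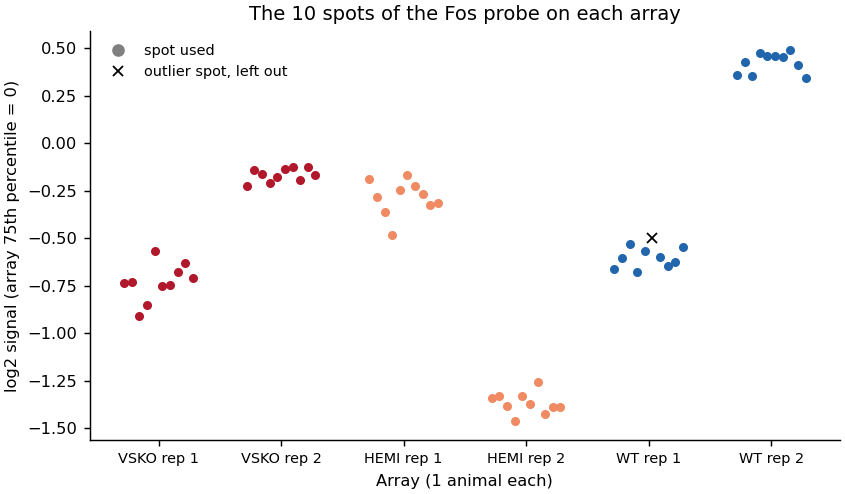
Log2 signal of each of the 10 spots of the *Fos* probe, by array, with 0 at the 75th percentile of the array and a cross for the outlier spot left out. Spots of 1 array lie close together (SD 0.035 to 0.098), and the arrays of 1 genotype lie apart, WT replicate 2 at a mean of 0.42 and WT replicate 1 at -0.61.

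*Fosb*, which encodes another Fos protein (chromosome 7, 19888168 to 19888227, minus strand), stood at -2.70 and -2.14 in VSKO, -2.71 and -3.34 in HEMI and -3.01 and -1.36 in WT. The order of the extremes was that of *Fos*: WT replicate 2 was highest, by 0.79 over the next array, and HEMI replicate 2 lowest. The VSKO arrays lay above both HEMI arrays, though barely (-2.70 on VSKO replicate 1, -2.71 on HEMI replicate 1), and within the span of the WT arrays.

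*Junb*, a Jun protein that is itself an immediate early gene (chromosome 8, 87501881 to 87501940, minus strand), had the widest range of the 10 genes. It stood at -4.05 and -3.99 in VSKO, -4.03 and -4.75 in HEMI and -3.33 and -1.74 in WT. Both WT arrays lay above all 4 VSKO and HEMI arrays, but they were 1.59 apart from each other, 3.0-fold, which is more than the VSKO minus WT difference. The probe is dim: before scaling its processed signal was 51.8 and 43.6 in VSKO, 46.1 and 29.3 in HEMI and 65.1 and 224 in WT, where the median over all non-control spots of an array was 48.8 to 63.8. Its sequence is shown because it carries the largest difference among the 10 genes, and it starts at base 707 of the transcript.
Junb probe: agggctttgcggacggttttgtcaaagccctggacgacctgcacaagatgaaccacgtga

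*Jun*, the partner shared by the Fos proteins (chromosome 4, 94716928 to 94716987, minus strand), varied little. It stood at 3.23 and 3.39 in VSKO, 3.68 and 3.17 in HEMI and 3.48 and 3.54 in WT, a range of 1.42-fold. The VSKO arrays lay just below both WT arrays, and the HEMI arrays enclosed all others.

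*Egr1*, a zinc finger factor, has its probe on chromosome 18 from 35024395 to 35024454 (plus strand). It stood at 4.0 and 3.95 in VSKO, 3.91 and 3.23 in HEMI and 3.16 and 3.56 in WT. Its order was unlike that of *Junb*: the VSKO arrays lay above the 2 HEMI and the 2 WT arrays, while HEMI and WT overlapped. *Egr2*, its paralogue known for its part in Schwann cells (chromosome 10, 67004798 to 67004857, plus strand), stood at 1.43 and 1.28 in VSKO, 1.36 and 1.56 in HEMI and 0.86 and 1.58 in WT. WT replicate 1 was the lowest, by 0.42, and WT replicate 2 the highest, so the WT pair enclosed all other arrays.

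*Ier2*, a small nuclear protein of the early response (chromosome 8, 87186214 to 87186273, minus strand), had the narrowest range, 1.39-fold. It stood at -0.62 and -0.69 in VSKO, -0.56 and -1.03 in HEMI and -0.70 and -0.87 in WT. *Atf3*, a stress-induced factor of the ATF family (chromosome 1, 192994547 to 192994606, minus strand), stood at -1.45 and -0.97 in VSKO, -0.89 and -1.26 in HEMI and -1.84 and -0.50 in WT. The 2 WT animals were its lowest and its highest array, and the other 4 lay between them.

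*Dusp1*, the MAP kinase phosphatase, stood at 0.04 and 0.26 in VSKO, 0.30 and -0.44 in HEMI and 0.49 and 0.55 in WT. Both WT arrays lay above all other arrays, and HEMI replicate 2 was the lowest by 0.49. The array files place its probe on chromosome 17 from 26642526 to 26642536 (minus strand), which covers 11 bases of the probe.

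*Hspa1a*, the only heat shock gene of the 10 (chromosome 17, 35107117 to 35107176, minus strand), stood at 0.05 and 0.49 in VSKO, 0.15 and 0.35 in HEMI and 0.44 and 1.03 in WT. WT replicate 2 was highest by 0.54, the HEMI arrays lay below both WT arrays, and VSKO overlapped WT. Its probe is listed for the transcripts of both *Hspa1a* and the neighbouring copy *Hspa1b*, so the 2 genes cannot be told apart here. No other probe for *Hspa1b* was tested, and the promoter windows of the pair are identical at 247 of 250 bases.
Hspa1a probe: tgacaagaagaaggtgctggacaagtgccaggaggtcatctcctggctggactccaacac

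**Figure D2:**
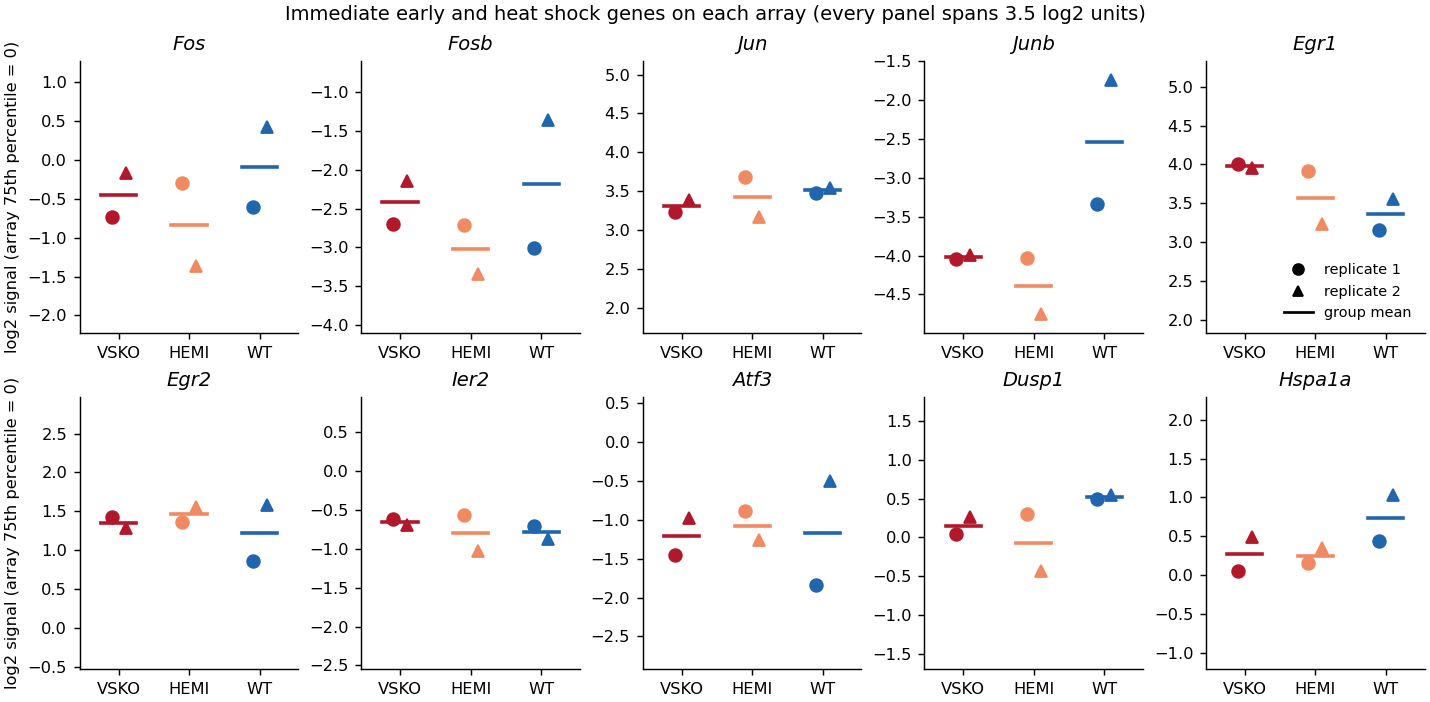
Log2 signal (75th percentile of the array at 0) of each of the 10 genes on each array, VSKO, HEMI and WT from left to right, with circles for replicate 1, triangles for replicate 2 and a line at the group mean; every panel spans 3.5 log2 units, so distances between points, not heights, can be compared between panels. The blue triangle, WT replicate 2, is the highest point in 7 of the 10 panels, and in the *Fos*, *Fosb*, *Junb* and *Atf3* panels the 2 WT points are 1.03 to 1.65 apart.

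None of the 10 genes differed between genotypes past the threshold (limma, adjusted p under 0.05 over the 24569 genes tested, 2 arrays per group). Between VSKO and WT 0 of 10 passed, where 0.977% of all genes did, and at an unadjusted p under 0.05 there was 1, *Junb*, where 14.7% of all genes were. *Junb* was 1.49 ± 0.55 (SE) lower in VSKO than in WT on the log2 scale, 2.81-fold, with a 95% interval of the difference from -2.88 to -0.10 (limma adjusted p = 0.312). *Egr1* came next: it was 0.61 ± 0.27 higher in VSKO, 1.53-fold, with an interval from -0.06 to 1.29 (limma adjusted p = 0.376). For *Hspa1a* the difference was -0.47 ± 0.26 (limma adjusted p = 0.479), for *Fos* -0.36 ± 0.50 (adjusted p = 0.788) and for *Fosb* -0.24 ± 0.58 (adjusted p = 0.882). The intervals of *Fos* and *Fosb* reach from -1.64 to 0.92 and from -1.72 to 1.24, so a 2-fold difference, downwards for *Fos* and in either direction for *Fosb*, lies inside what these arrays allow. The remaining 5 genes lay between -0.36 and 0.13 (limma adjusted p of 0.585 to 0.977). Arrays of the 2 groups did not overlap for 5 of the 10 genes, higher in VSKO for *Egr1* and *Ier2* (22.3% of all genes) and lower for *Jun*, *Junb* and *Dusp1* (23.4%). Together that share is close to the 45.7% of all genes whose arrays did not overlap. The median difference of the 10 genes was -0.22, beside -0.01 for all genes.

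Between HEMI and WT again 0 of 10 passed (0.118% of all genes), and *Junb* alone had an unadjusted p under 0.05 (12.4% of all genes). It was 1.86 ± 0.55 lower in HEMI than in WT, 3.62-fold, with an interval from -3.25 to -0.46 (limma adjusted p = 0.297). With normexp background correction the difference of this dim probe was -1.10 between HEMI and WT and -0.97 between VSKO and WT. *Dusp1* was 0.59 ± 0.26 lower (limma adjusted p = 0.454) and *Hspa1a* 0.48 ± 0.26 lower (adjusted p = 0.524). These 3 genes were also the ones whose HEMI arrays lay below both WT arrays, and none lay above, where 28.4% of all genes lay below, 20.9% above and 49.3% either way. *Fos* stood at -0.74 (limma adjusted p = 0.608) and *Fosb* at -0.84 (0.609), and the other 5 lay between -0.08 and 0.24. The median of the 10 was -0.28, beside -0.02 for all genes. Both comparisons use the same WT arrays, and VSKO and HEMI lay in row 1 of the slide and WT in row 2, so row and genotype cannot be told apart in either.

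VSKO and HEMI shared a slide row but lay in columns 1 and 2 and columns 3 and 4, so column and genotype cannot be told apart. Between them 0 of 10 passed (0.142% of all genes) and 0 had an unadjusted p under 0.05 (7.69% of all genes). *Fosb* was 0.61 ± 0.58 higher in VSKO and *Egr1* 0.40 ± 0.27 higher (limma adjusted p = 0.999 and 0.941), and these were the 2 of 10 genes without overlap, both higher, beside 18.8% of all genes higher, 14.1% lower and 32.9% in all. The nearest VSKO and HEMI arrays lay close, at -2.70 and -2.71 for *Fosb* and at 3.95 and 3.91 for *Egr1*. *Junb* differed by 0.37 ± 0.55 with an interval from -1.02 to 1.76, and *Hspa1a* by 0.02 ± 0.26 with an interval from -0.64 to 0.67 (limma adjusted p = 0.999 for both). The median difference of the 10 was 0.18, beside 0.02 for all genes.

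**Figure D3:**
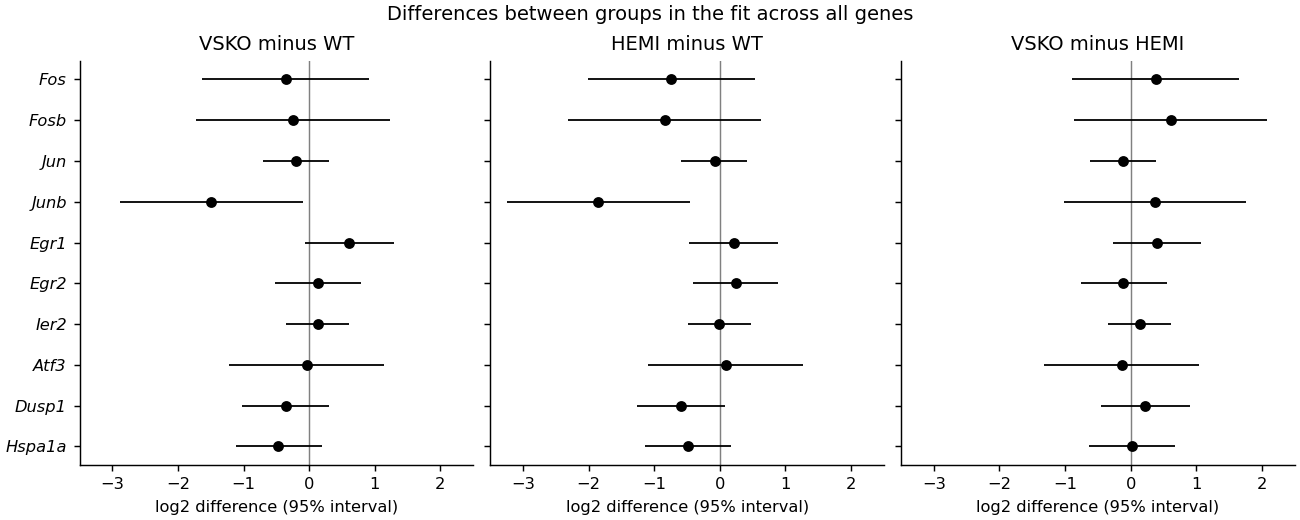
Log2 difference of each of the 10 genes in the 3 comparisons (VSKO minus WT, HEMI minus WT, VSKO minus HEMI), with the 95% interval of the fit. Only the 2 *Junb* intervals against WT leave out 0, before any adjustment over genes, and those of *Fos*, *Fosb*, *Junb* and *Atf3* are the widest.

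Several of these differences rest on WT replicate 2. Without it, *Junb* was 0.70 lower in VSKO than in WT (limma adjusted p = 0.541) and 1.06 lower in HEMI (0.465), the lone WT array being assumed to vary like the other groups. The VSKO minus WT differences of *Fos*, *Fosb* and *Atf3* then turned positive, to 0.16, 0.59 and 0.63 (limma adjusted p = 0.935, 0.646 and 0.525). That of *Egr1* was 0.81 (adjusted p = 0.463) and that of *Hspa1a* -0.17 (adjusted p = 0.839). Without HEMI replicate 2, the array at the low end, the HEMI minus WT difference of *Fos* was -0.19, that of *Dusp1* -0.21 and that of *Junb* -1.50.

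Animals of 1 genotype differed more in these genes than in most. The residual SD within groups (3 degrees of freedom) was 0.757 for *Fosb*, 0.712 for *Junb*, 0.652 for *Fos* and 0.601 for *Atf3*, at the 96.3, 95.7, 94.6 and 93.6 percentiles of all genes tested. All 10 genes lay above the median of all genes, 0.170, and the median of the 10 was 0.321. Genes of any brightness enter these percentiles. *Fosb* and *Junb* had the dimmest probes of the 10 (signals of 77.6 to 292 and 29.3 to 224), with 1 spot each. At or above the 90th percentile were 4 of the 10, beside 6 of 6 erythroid, 7 of 9 skeletal muscle and 4 of 8 macrophage markers. *Jun* (0.219) and *Ier2* (0.207) were the steadiest, at the 63.0 and 60.2 percentiles, and *Egr1*, *Egr2*, *Dusp1* and *Hspa1a* lay between 0.309 and 0.322. Which group had the closer pair of animals varied by gene. For *Junb* the 2 animals differed by 0.06 in VSKO, 0.72 in HEMI and 1.59 in WT, for *Atf3* by 0.48 in VSKO, 0.37 in HEMI and 1.34 in WT, and for *Dusp1* by 0.22 in VSKO, 0.75 in HEMI and 0.06 in WT. With 2 animals a group, each such difference is a single value, and no test of unequal spread was run.

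**Figure D4:**
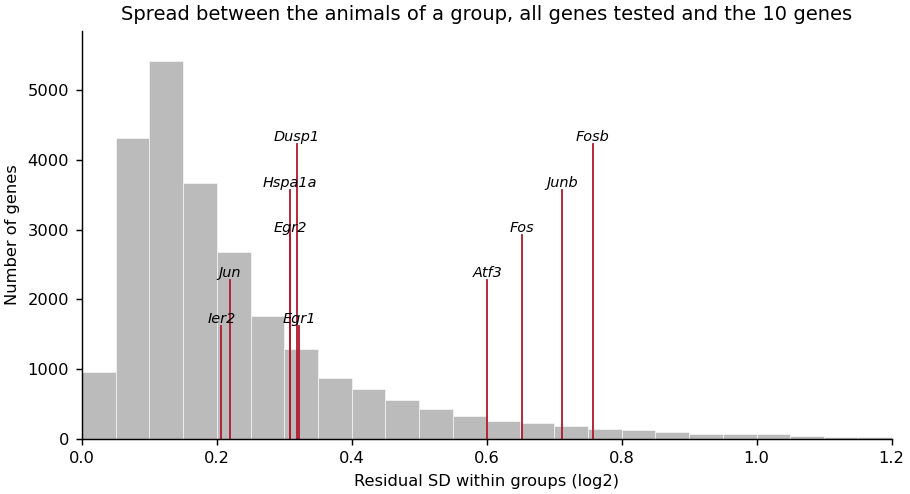
Histogram of the residual SD within groups (log2) over the genes tested up to an SD of 1.2, with a red line at the value of each of the 10 genes. *Atf3*, *Fos*, *Junb* and *Fosb* lie in the right tail (0.601 to 0.757), and the other 6 between 0.207 and 0.322, right of the median of all genes at 0.170.

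Taken array by array, WT replicate 2 held the highest value for 7 of the 10 genes (all but *Jun*, *Egr1* and *Ier2*), where 15.9% of all genes were highest on that array. HEMI replicate 2 held the lowest value for 6 (*Fos*, *Fosb*, *Jun*, *Junb*, *Ier2* and *Dusp1*), where 16.2% of all genes were lowest there. With each gene centred on its mean over the arrays, the median of the 10 was -0.17 and 0.06 on the VSKO arrays, 0.14 and -0.34 on the HEMI arrays and -0.06 and 0.48 on the WT arrays. The same median over all genes stayed between -0.02 and 0.02. On WT replicate 1 the genes went both ways, with *Junb* 0.32 above its own mean and *Atf3* 0.69 below, and 3 of the 10 (*Egr1*, *Egr2* and *Atf3*) were lowest there. On HEMI replicate 1, 2 of the 10 (*Jun* and *Ier2*) were highest.

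On WT replicate 2, 4 of the 10 genes (*Fos*, *Fosb*, *Junb* and *Hspa1a*) lay at least 0.5 above every other array, as did 0.953% of the 24548 genes with a value on all arrays. The margin of 0.5 was chosen after the values were seen. The gap to the next array was 3.0-fold for *Junb*, 1.73-fold for *Fosb*, 1.50-fold for *Fos* and 1.46-fold for *Hspa1a*. On HEMI replicate 2, *Fos* and *Junb* lay at least 0.5 below every other array (0.937% of all genes), by 1.56-fold and 1.63-fold. On the other 4 arrays none of the 10 stood apart by this margin in either direction (0.843 to 1.59% of all genes by array and direction).

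Other genes of the early and stress responses were taken from 6 lists with 109 genes tested. None passed in any comparison, where 0.977% (VSKO minus WT), 0.118% (HEMI minus WT) and 0.142% (VSKO minus HEMI) of all genes did. The array pattern was most marked among the transcription factors. Of 18 other immediate early transcription factors, 11 were highest on WT replicate 2 and 7 had a residual SD at or above the 90th percentile of all genes. *Nr4a2*, an orphan nuclear receptor, stood at -1.97 and -1.92 in VSKO, -1.82 and -1.83 in HEMI and -1.27 and 2.57 in WT, so that WT replicate 2 was 14.3-fold above the next array. Another probe for it stood at 1.17 on that array and between -3.36 and -2.41 on the others. *Nr4a1*, its paralogue, which is induced by luteinizing hormone in Leydig cells, stood at 3.74 and 3.73 in VSKO, 3.87 and 3.82 in HEMI and 4.96 and 6.54 in WT. Here both WT animals lay above the rest, and the VSKO minus WT difference was -2.01 ± 0.50 (limma adjusted p = 0.173), that of *Nr4a2* -2.59 ± 1.19 (adjusted p = 0.401). *Per1*, a clock gene with an early response, stood at 2.54 and 3.07 in VSKO, 2.42 and 2.04 in HEMI and 2.73 and 4.37 in WT. *Fosl2*, another Fos protein, stood at 1.79 and 2.04 in VSKO, 1.79 and 1.99 in HEMI and 2.10 and 3.60 in WT. Both were high on WT replicate 2 alone.

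Of 26 other early signalling and RNA decay genes, 9 were highest on WT replicate 2. *Btg2*, an antiproliferative early gene, stood at -0.65 and -0.14 in VSKO, -0.23 and -0.31 in HEMI and 0.53 and 1.56 in WT (VSKO minus WT -1.44 ± 0.37, limma adjusted p = 0.182). *Dusp5*, a nuclear phosphatase of ERK, had both its lowest and its highest value in WT, -4.58 and -2.63. *Dusp4*, a phosphatase of the same family, stood at -0.02 and -0.22 in VSKO, -1.65 and -1.46 in HEMI and -1.82 and -0.36 in WT, so its VSKO arrays lay above both HEMI arrays and WT replicate 2 lay near them (VSKO minus HEMI 1.44, limma adjusted p = 0.512). *Gadd45b*, a growth arrest gene, stood at 1.35 and 0.97 in VSKO, 0.69 and 0.43 in HEMI and 1.24 and 1.87 in WT. Among 18 upstream regulators, 3 were highest on WT replicate 2. *Crem*, a cyclic AMP responsive factor that has an inducible short form, stood at -1.05 and -0.77 in VSKO, -0.86 and -0.94 in HEMI and -0.58 and 0.61 in WT, and its other bright probe was also high on WT replicate 2, by 1.66. *Creb1*, the constitutive factor of that family, ran the other way, at -1.17 and -1.47 in VSKO, -1.50 and -1.31 in HEMI and -1.68 and -1.92 in WT (VSKO minus WT 0.48, limma adjusted p = 0.300).

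The heat shock and chaperone genes beyond *Hspa1a* were steadier. The median residual SD of 25 such genes was 0.116, below the 0.170 of all genes, and 8 were highest on WT replicate 2. *Hspa4l*, an Hsp110-family chaperone of the testis, stood at -0.49 and -0.43 in VSKO, -0.24 and -0.19 in HEMI and 0.18 and 0.27 in WT, in the order of the genotypes (VSKO minus WT -0.69 ± 0.12, limma adjusted p = 0.0817). *Hspb8*, a small heat shock protein, stood at 0.74 and 1.17 in VSKO, 1.14 and 0.92 in HEMI and 1.04 and 1.86 in WT. *Hsph1*, a cytosolic Hsp110, was highest on WT replicate 1 (2.46) and *Cryab*, an alpha-crystallin, lowest on VSKO replicate 1 (1.33). These 4 genes had no common high array.

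Of 14 genes of endoplasmic reticulum and integrated stress, 5 were highest on WT replicate 2, where the median of the list was 0.14, the highest of the 6 arrays. *Pdia4*, a protein disulfide isomerase, stood at 0.67 and 0.78 in VSKO, 0.84 and 0.74 in HEMI and 1.57 and 1.60 in WT, with the VSKO minus WT difference at -0.86 ± 0.12 (limma adjusted p = 0.0531). *Hsp90b1*, the Hsp90 of the endoplasmic reticulum, stood at 5.76 and 5.55 in VSKO, 5.69 and 5.64 in HEMI and 6.28 and 6.43 in WT (-0.70 ± 0.14, adjusted p = 0.113). Among 8 oxidative stress genes the metallothioneins *Mt1* and *Mt2*, which bind zinc and copper and are induced by metals and glucocorticoids, were high in both VSKO animals. *Mt1* stood at 5.10 and 5.50 in VSKO, 4.15 and 3.87 in HEMI and 3.81 and 3.96 in WT (VSKO minus WT 1.41 ± 0.19, limma adjusted p = 0.0528). *Mt2* stood at 4.64 and 5.32 in VSKO, 3.67 and 3.19 in HEMI and 3.02 and 3.08 in WT (1.93 ± 0.28, adjusted p = 0.0593). Another, dimmer probe for *Mt1* stood at -2.52 and -3.23 in VSKO, -3.18 and -3.28 in HEMI and -3.26 and -3.55 in WT, with VSKO replicate 2 among the HEMI and WT values. Both genes and *Pdia4* passed under some of the other settings given in the closing section.

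Counted over all 6 lists, 14 of 108 genes with values on all arrays lay at least 0.5 above every other array on WT replicate 2, where 0.953% of all genes did. They are *Btg2*, *Crem*, *Dusp5*, *Fosl2*, *Gadd45b*, *Hspb8*, *Maff*, *Myc*, *Nfil3*, *Nr4a1*, *Nr4a2*, *Per1*, *Ppp1r15a* and *Trib3*. On no other array did more than 2 of the 108 lie that far above the rest. On HEMI replicate 2, 3 of them (*Id1*, *Ier3* and *Trib3*) lay that far below. The lists were chosen with earlier results of these arrays known, and no test was made of these counts.

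The genes whose centred profile over the 6 arrays was most like that of *Fos*, among 14825 named genes well above background on all arrays, were *Klf9*, *Prap1* and *Cnn1*, with root mean square differences of 0.123, 0.190 and 0.199 against a median of 0.576 over all candidates. For *Egr1* they were *Tmem37*, *Lrch3* and *Zfp39* (0.061, 0.076 and 0.081, median 0.380), and for *Hspa1a* they included *Cd72* and *Fam227b* (0.064 and 0.085, median 0.352). With 6 arrays and this many candidates, close profiles are to be found for most genes, and the likeness is a description only.

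Levels of cell type markers differed between arrays as well. Markers of germ cells (12 of 12) and Sertoli cells (10 of 10) were well above background on all 6 arrays, as were 6 of 6 fetal Leydig cell markers tested, and the median of the Leydig list, each marker centred on its own mean, was -0.13 and -0.41 in VSKO, -0.31 and -0.09 in HEMI and 0.56 and 0.67 in WT. The summed signal of these 6 markers ran from 10500 to 11100% of the 75th percentile in VSKO, from 9240 to 11500% in HEMI and from 14100 to 15900% in WT. The median of the germ cell list was -0.06 and -0.23 in VSKO, -0.24 and 0.05 in HEMI and 0.28 and 0.40 in WT. Both WT animals were thus high in the medians of the Leydig and germ cell lists. Of the 6 Leydig markers, 4 were lower in VSKO than in WT and 2 higher, by at most 0.05. Of the 12 germ cell markers, 12 were lower in VSKO than in WT. Highest on WT replicate 2 were 4 of 6 Leydig and 8 of 12 germ cell markers, beside 7 of the 10 early genes. Of the early genes, *Junb* and *Dusp1* also had both WT arrays above all others. The median of 7 peritubular myoid and smooth muscle markers was -0.06 and 0.22 in VSKO, 0.15 and -0.08 in HEMI and -0.25 and 0.18 in WT, with a summed signal of 8620 and 11900% of the 75th percentile in VSKO, 10600 and 8690% in HEMI and 7760 and 11500% in WT. In each genotype the animal with the higher level of this list was also the one with the higher *Fos*. The same held for the interstitial mesenchyme list (-0.09 and 0.05 in VSKO, 0.28 and -0.16 in HEMI, -0.05 and 0.06 in WT). It held as well for the mesonephric duct and epididymis list (-0.24 and 0.32, 0.55 and -0.16, -0.47 and -0.11), and not for the other marker lists. This order was compared for 11 marker lists, and with 2 animals per genotype it can match without any link. No link was tested. *Cnn1*, one of the 3 profiles closest to *Fos*, is one of the 7 myoid and smooth muscle markers. Macrophage markers were lowest on HEMI replicate 2 (median -0.58, 6 of 8 markers lowest there), the array on which the early genes were low, but highest on HEMI replicate 1 (0.55) and not on WT replicate 2 (-0.08). Skeletal muscle markers ranged from -1.38 on VSKO replicate 1 to 1.44 on WT replicate 1 and stood at -0.97 on WT replicate 2, and erythroid markers were high on VSKO replicate 2 alone (1.26). Of 90 markers tested, *Cyp17a1*, an enzyme of androgen synthesis in Leydig cells, was called lower in VSKO than in WT (-1.40 ± 0.16, limma adjusted p = 0.0423), and *Lhx1*, of the mesonephric duct, higher (1.25 ± 0.15, adjusted p = 0.0431). In this comparison 0.977% of all genes were called. WT replicate 2 also had the lowest share of spots well above background, 59.2%, against 61.63 to 64.53% on the other arrays, and its 75th percentile, 747.8, lay within the range of the rest (652.2 to 857.1). The part of cell makeup or RNA quality in the array pattern was not tested.

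**Figure D5:**
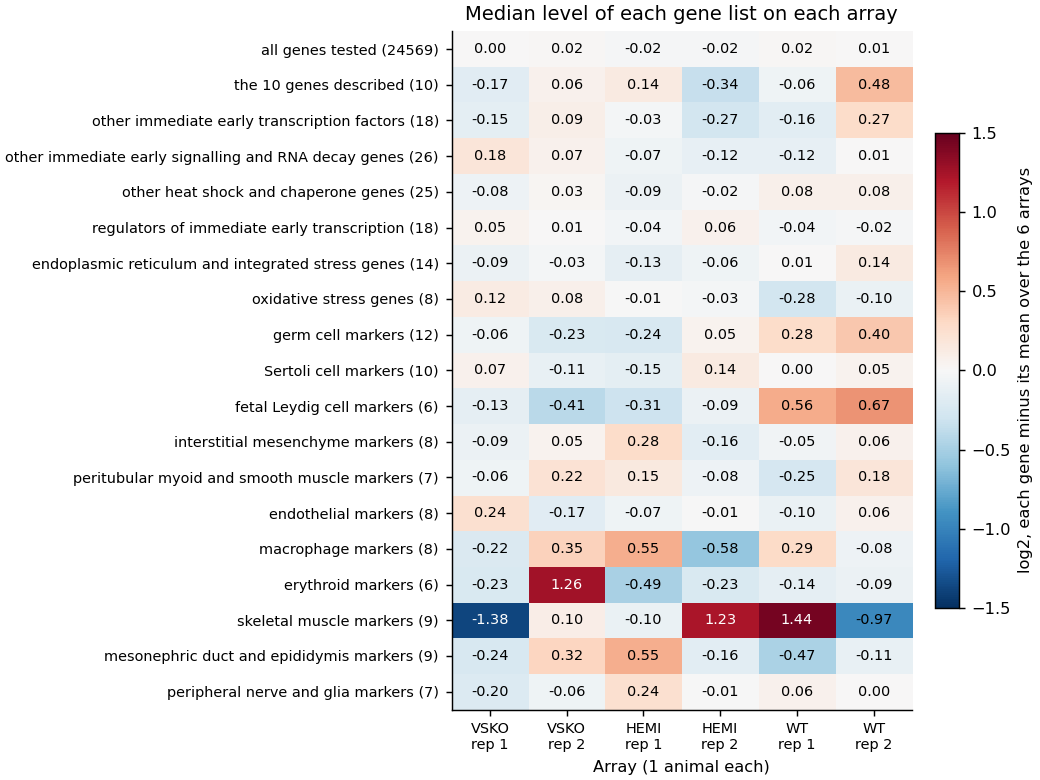
Median over each gene list of the log2 signal minus the gene's own mean over the 6 arrays, with the list and its number of genes down the side and the arrays across, red above and blue below the mean. The 10 genes and the other immediate early transcription factors are highest on WT replicate 2 (0.48 and 0.27) and lowest on HEMI replicate 2 (-0.34 and -0.27), the Leydig list is high on both WT arrays (0.56 and 0.67), and all genes together stay within 0.02 of 0.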

How the data were processed

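The authors' deposited array files give every spot a processed signal, a linear intensity from which background was subtracted and a spatial trend removed per the file headers, beside mean and local background intensities and quality flags of 0 or 1 (unit: other, per the file headers). Feature Extraction is named as version 8.5.1.1 per the submitters' processing notes, with modules of version 10.7.3.1 per the file headers. The deposited series table holds an intensity as well, which equals the processed signal divided by the array median within 0.001%. Here, outlier spots were dropped, log2 processed signals were set relative to each array's 75th percentile (59305 non-control spots) and replicate spots averaged. A probe was kept if both arrays of any group had it well above background (34365), with the brightest probe per gene (24569 genes). The 6 arrays, which lay on 1 slide with 1 scan time, were fitted with limma 3.58.1 in R 4.3.3 (3 residual and 2.25 prior degrees of freedom, Benjamini-Hochberg adjustment over all genes, threshold 0.05). The script was tested on simulated data. Names were updated through RefSeq (GRCm38.p6), which changed 2930 of 55681 probes and none of the 10 genes. The 10 genes and the lists were chosen with earlier results of these data known. The rule for other genes named was the passing members of each list, for stress lists also the 2 with the largest VSKO minus WT difference, and for 3 of them the 4 with the widest range. Of the marker lists, only passing members are named. A few genes that the rules would name are not reported here. Genes named for their gap on WT replicate 2 were chosen after their values were seen. The small number of arrays limits the precision of every value. The alternatives were other scalings, background correction, filters, probe rules, fits and leaving out each array.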

Additional observations from a re-analysis of the deposited data

How the results depend on the processing

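Of the 10 genes, 0 passed in each comparison under every alternative and without any 1 array, with a smallest limma adjusted p of 0.166, for *Junb*; its largest against WT was 0.569. The number on WT replicate 2 at least 0.5 above every other array was 4 with median scaling, quantile scaling, normexp and the series table. With these, 6 or 7 of the 10 genes were highest on that array and 5 or 6 lowest on HEMI replicate 2. The series table repeats median scaling, and the filters and probe rules could not change these counts, as each gene has 1 probe kept throughout. For the other stress genes, the number was 12 to 15 over all 8 of these settings. Of 330 member differences, 6 changed sign, all with another scaling or with normexp. The filters, probe rules and other fits leave these differences as they are and could not change a sign. *Ier2*, HEMI minus WT, was 0.03 with median scaling or the series table and 0.00 with quantile scaling. *Hspa1a*, VSKO minus HEMI, was -0.05 with median scaling or the series table and -0.02 with normexp. With normexp the *Junb* difference from WT was -0.97 for VSKO and -1.10 for HEMI.

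The number of genes passing (240 for VSKO minus WT, 29 for HEMI minus WT and 35 for VSKO minus HEMI) moved more, and no cause was tested. HEMI minus WT gave 55 with median scaling or the series table, 132 with normexp, 68 with only probes above background on all arrays and 130 with an intensity trend. VSKO minus HEMI gave 74 with median scaling or the series table, 17 with quantile scaling and 15 with only probes above background on all arrays. With no filter the 3 counts were 12, 0 and 5, and fitting only the 2 groups compared gave 42, 4 and 0. No sign that the replicate numbers pair the animals was seen across genes (correlations of -0.04, -0.03 and -0.01), but a shared litter cannot be checked. With the replicate block the counts were 19, 0 and 0. At an unadjusted p under 0.05 in limma, the counts of 0 stood beside 5281 genes (HEMI minus WT, no filter), 2796 and 1872 (HEMI minus WT and VSKO minus HEMI, block) and 1741 (VSKO minus HEMI, 2 groups). Leaving out each array gave 0 to 69, 0 to 8 and 0 to 41 genes.

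In the 6 stress lists 0 genes passed as reported, beside 0.977, 0.118 and 0.142% of all genes in the 3 comparisons. For VSKO minus WT, *Mt1* and *Mt2* passed with median scaling and the series table (2), *Mt1* alone with quantile scaling (1), both and *Pdia4* with normexp and with only probes above background on all arrays (3), and these with *Hsp90b1* under an intensity trend (4). For HEMI minus WT, *Pdia4* passed with normexp and with the trend (1).

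Leaving out each array in turn, VSKO minus WT ran from -0.87 to 0.16 for *Fos*, -1.06 to 0.59 for *Fosb*, -0.22 to 0.49 for *Egr2* and -0.71 to 0.63 for *Atf3*. HEMI minus WT ran from -0.34 to 0.17 for *Jun*, -0.13 to 0.55 for *Egr1*, -0.12 to 0.60 for *Egr2*, -0.24 to 0.23 for *Ier2* and -0.58 to 0.76 for *Atf3*. VSKO minus HEMI ran from -0.16 to 0.92 for *Fos*, -0.37 to 0.14 for *Jun*, -0.10 to 0.37 for *Ier2*, -0.37 to 0.11 for *Atf3*, -0.15 to 0.60 for *Dusp1* and -0.20 to 0.23 for *Hspa1a*. *Junb* kept its sign, from -2.28 to -0.70 for VSKO minus WT and -2.65 to -1.06 for HEMI minus WT.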

Other observations

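Outside the lists, the widest gaps between WT replicate 2 and the next array were those of *Prrt3* (9.93-fold), *Olfr1123* (9.28-fold) and *Klrg1* (8.06-fold). These 3 genes were well above background on 4, 2 and 3 of 6 arrays, so their folds are set against dim values. *Olfr1123* passed the filter through 1 group alone. It stood at -5.14 and -1.93 in WT and between -8.01 and -7.76 in VSKO and HEMI. *Slc24a4* (4.40-fold) and *Nap1l5* (4.09-fold) also had wide gaps. *Camk2n2*, *Sik1*, *Ell2* and *Pck1*, given below, are a selection from the same ranking, chosen here after their values were seen. *Camk2n2*, an inhibitor of a calmodulin-dependent kinase, stood at -0.49 and -0.36 in VSKO, -0.52 and -0.22 in HEMI and -0.57 and 2.21 in WT, a gap of 5.38-fold. *Sik1*, a kinase induced by cyclic AMP, stood at -0.23 and 0.10 in VSKO, 0.11 and 0.43 in HEMI and 0.92 and 2.63 in WT. *Ell2*, an elongation factor, stood at -2.36 and -2.15 in VSKO, -2.29 and -2.19 in HEMI and -2.19 and -0.22 in WT. *Pck1*, the gluconeogenic enzyme and another cyclic AMP responsive gene, stood at -2.26 on WT replicate 2 and between -6.00 and -5.12 elsewhere, well above background on 3 of 6 arrays. In *Sik1* WT replicate 1 was the next highest array, as it was in *Nr4a2*, *Nr4a1*, *Btg2*, *Crem*, *Junb* and *Dusp1*, whereas in *Fos*, *Fosb* and *Atf3* it was among the lowest 3. *Hmox1*, which degrades haem, is from the oxidative stress list and not from this ranking. It was lower in both VSKO animals (0.95 and 0.89) than in HEMI (2.55 and 2.60) and WT (2.46 and 1.48), opposite to *Mt1* and *Mt2*, with a VSKO minus HEMI difference of -1.65 (limma adjusted p = 0.198).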
